A study of Mus musculus with 10 samples.

Results

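The genes described here encode the proteins of the cytosolic ribosome, measured in hippocampal RNA of nPGC-1α mice and of their PGC-1αf/f controls. They were chosen by name: every gene whose symbol starts with Rpl or Rps followed by a digit, together with Rplp0, Rplp1, Rplp2 and Rpsa. Kinases of the Rps6k family and pseudogenes were left out, and a probe counted only where its accession was a RefSeq mRNA of such a gene. This gave 88 genes with 155 probes, of 23462 named genes and 56605 probes on the array. One probe stood for each gene, the brightest of those that could be tested. In 8 genes a brighter probe was passed over, since outlier marks left it too few values. Of the 88 genes, 83 could be tested, of 17597 named genes tested in all. By role the 88 were 46 proteins of the large subunit, 31 of the small subunit and 10 paralogues or retrogenes of such proteins. The remaining gene, Rps19bp1, is not a ribosomal protein: its product binds one, and it carries the symbol of its partner.

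Both groups carried a transgene in the Rosa26 locus, in which a floxed PGK-neo-STOP cassette lies in front of PGC-1α, a transcriptional coactivator best known for driving mitochondrial genes. PGC-1αf/f mice lacked Cre and were littermate controls. In nPGC-1α mice, Eno2-Cre, driven by the promoter of neuron-specific enolase, removes the cassette in neurons, which then express PGC-1α and IRES-eGFP. All were C57BL/6 mice without surgery, labelled as males of 12 weeks, with 5 arrays of 1 mouse each per group. RNA came from the whole hippocampus, so that fewer cells of a type and less RNA per cell cannot be told apart. The comparison asked how neuronal PGC-1α overexpression altered hippocampal transcripts under basal conditions.

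The cytosolic ribosome translates nearly all cellular mRNAs. Its small subunit reads the mRNA, and its large subunit joins the amino acids and carries the P stalk, which recruits the translation factors. The subunits are assembled in the nucleolus from ribosomal RNA and one copy of most of the proteins, and the mRNAs of these proteins are among the most abundant in neurons and glia. Most of these mRNAs begin with a 5′ terminal oligopyrimidine (TOP) tract, a run of C and T at the very start of the transcript, through which the mTOR pathway sets their translation together.

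The start regions of these genes were read from RefSeq promoter windows of assembly GRCm38.p6, which reach from 250 bases before to 50 bases after the annotated start. Of the 88 genes, 68 had a window. The other 20 included Rpl3, Rpl21, Rpl32, Rplp1 and Rps27a. The windows below are shown because they hold the letters that many of these genes share. Each is written 5′ to 3′ on the strand of the gene, from 60 bases before to 20 bases after the annotated start. Capitals mark the pyrimidine run of at least 8 letters nearest the start, on the strand of the gene, and the letters CCGGAAG, the core of the motif of ETS factors such as GABP, a partner of PGC-1α at nuclear genes for mitochondrial proteins.
Rpl27a, chr7:109519135-109519214, plus strand: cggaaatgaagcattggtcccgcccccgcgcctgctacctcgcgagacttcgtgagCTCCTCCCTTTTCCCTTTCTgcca
Rps6, chr4:86857348-86857427, minus strand: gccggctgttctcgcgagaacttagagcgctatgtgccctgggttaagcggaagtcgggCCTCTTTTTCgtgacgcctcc
Rps18, chr17:33955646-33955725, minus strand: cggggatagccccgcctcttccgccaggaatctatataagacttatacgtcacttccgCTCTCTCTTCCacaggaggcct
Rplp2, chr7:141447591-141447670, plus strand: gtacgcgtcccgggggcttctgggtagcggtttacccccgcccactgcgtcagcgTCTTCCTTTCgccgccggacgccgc
Rpl37, chr15:5116553-5116632, plus strand: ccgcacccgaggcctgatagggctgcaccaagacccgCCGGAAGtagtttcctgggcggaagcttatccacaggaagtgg
Rpl11, chr4:136053374-136053453, minus strand: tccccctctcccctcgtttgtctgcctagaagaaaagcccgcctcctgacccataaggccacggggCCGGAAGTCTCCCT

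In Rpl27a, Rps6, Rps18 and Rplp2 the pyrimidine run spans the annotated start. In Rpl11 the run follows directly on the ETS letters and goes on beyond the printed stretch, for 17 letters in all. In Rpl37 the run of 11 letters starts at position 29, with the annotated start as position 1, outside the printed stretch, so that only the ETS letters are in capitals. A pyrimidine run of at least 8 letters lay within 30 bases of the annotated start, on the strand of the gene, in 47 of the 68 genes with a window (69.1%), and in 30.5% of all 27025 genes with windows of the same length. A C exactly at the annotated start, followed by at least 4 pyrimidines, was found in 14 of 68 genes (20.6%) and in 3.01% of all genes. CCGGAAG was searched on both strands and occurred in 26 of 68 genes (38.2%) and in 9.93% of all genes. On the other strand these letters read CTTCCGG, whose first letters can lie within a pyrimidine run. The letters of NRF-1, GCGCA and GCGC parted by any 1 letter, were present in 6 of the 68 genes (8.82%) against 5.19% of all genes. The letters AAGGTCA, a half-site of estrogen-related receptors, were present in 5 (7.35%) against 5.38%. The YY1 letters AAGATGGC were present in 6 (8.82%) against 3.19%, and TATAAA in 8 (11.8%) against 15.7%. These are matches of letters in a window around an annotated start, which can lie some bases away from the start used in this tissue.

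Before the expression values, 3 facts about the arrays matter. First, the transcripts Kdm5d, Uty and Ddx3y of the Y chromosome were well above background on 4 arrays, nPGC-1α replicates 1, 3 and 5 and PGC-1αf/f replicate 1, although every mouse was labelled as a male. Results are therefore given with and without this split. Second, 1 slide held replicates 1 to 4 of each group, with PGC-1αf/f in its first row and nPGC-1α in its second, and a second slide held replicate 5 of each, so that row and genotype cannot be told apart on the first. Finally, the arrays of the groups differed in signal quality. Spots well above background made up 74.5% to 81.5% in PGC-1αf/f and 67.2% to 73.4% in nPGC-1α, without overlap (exact permutation test, two-sided p = 0.00794, the smallest that 5 against 5 arrays can give; adjusted p = 0.0278 over 7 measures). Outlier marks removed many spots of these bright probes on replicate 1 of each group, which kept values for 53 (PGC-1αf/f) and 54 (nPGC-1α) of the 83 genes, against 80 to 83 on the other arrays. No spot was saturated.

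Levels are log2 values relative to the 75th percentile of the array, so that a level of 0 equals that percentile. Levels of different probes are not comparable with each other. Ppargc1a, which encodes PGC-1α, had levels of 2.34, 2.19, 2.13, 2.19 and 2.15 in PGC-1αf/f replicates 1 to 5. In nPGC-1α replicates 1 to 5 it had 2.29, 2.23, 2.06, 2.12 and 2.31. The groups overlapped throughout, with a difference of 0.0035 ± 0.09 (SE; limma, adjusted p = 0.990). Whether its probe reads the transcript of the transgene is not given in the sources used here, so these values do not check the labels.

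No ribosomal protein gene passed an adjusted p of 0.05, and across all 39142 probes 0.00255% did. At an unadjusted p of 0.05, 5 of the 83 genes were lower in nPGC-1α, against a background of 5.03% of all named genes, and 0 were higher, against 3.18%. With quantile normalisation these shares of all named genes were 2.09% lower and 3.98% higher. At the 75th percentile scale the 5 of 83 are close to the background share, and the lowest adjusted p was 0.153. The count moved with the fit. It was 20 of 83 without PGC-1αf/f replicate 3, where 5.56% of all named genes were lower, and 12 with the replicate block, where 7.06% were. It was 9 with a mean-variance trend and robust eBayes, against 5.17%, and 1 without PGC-1αf/f replicate 1, nPGC-1α replicate 2 or nPGC-1α replicate 3, against 3.92%, 4.72% and 3.47%. The fitted difference, nPGC-1α minus PGC-1αf/f, nevertheless lay below 0 in 83 of 83 genes, where 56.7% of all named genes did. Its median was -0.14, with quartiles of -0.19 and -0.11, against a median of -0.02 over all named genes. On a linear scale the differences ran from 0.559-fold in Rpl39l to 0.995-fold in Rpl15. The Rpl39l probe was dim, above background on 5 PGC-1αf/f but only 3 nPGC-1α arrays, and was kept through PGC-1αf/f alone. Next lowest was Rpl37, at 0.712-fold. When each of the 10 arrays had to hold a probe well above background, Rpl39l dropped out. All 82 genes left then lay below 0, with a median of -0.14.

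**Figure D1:**
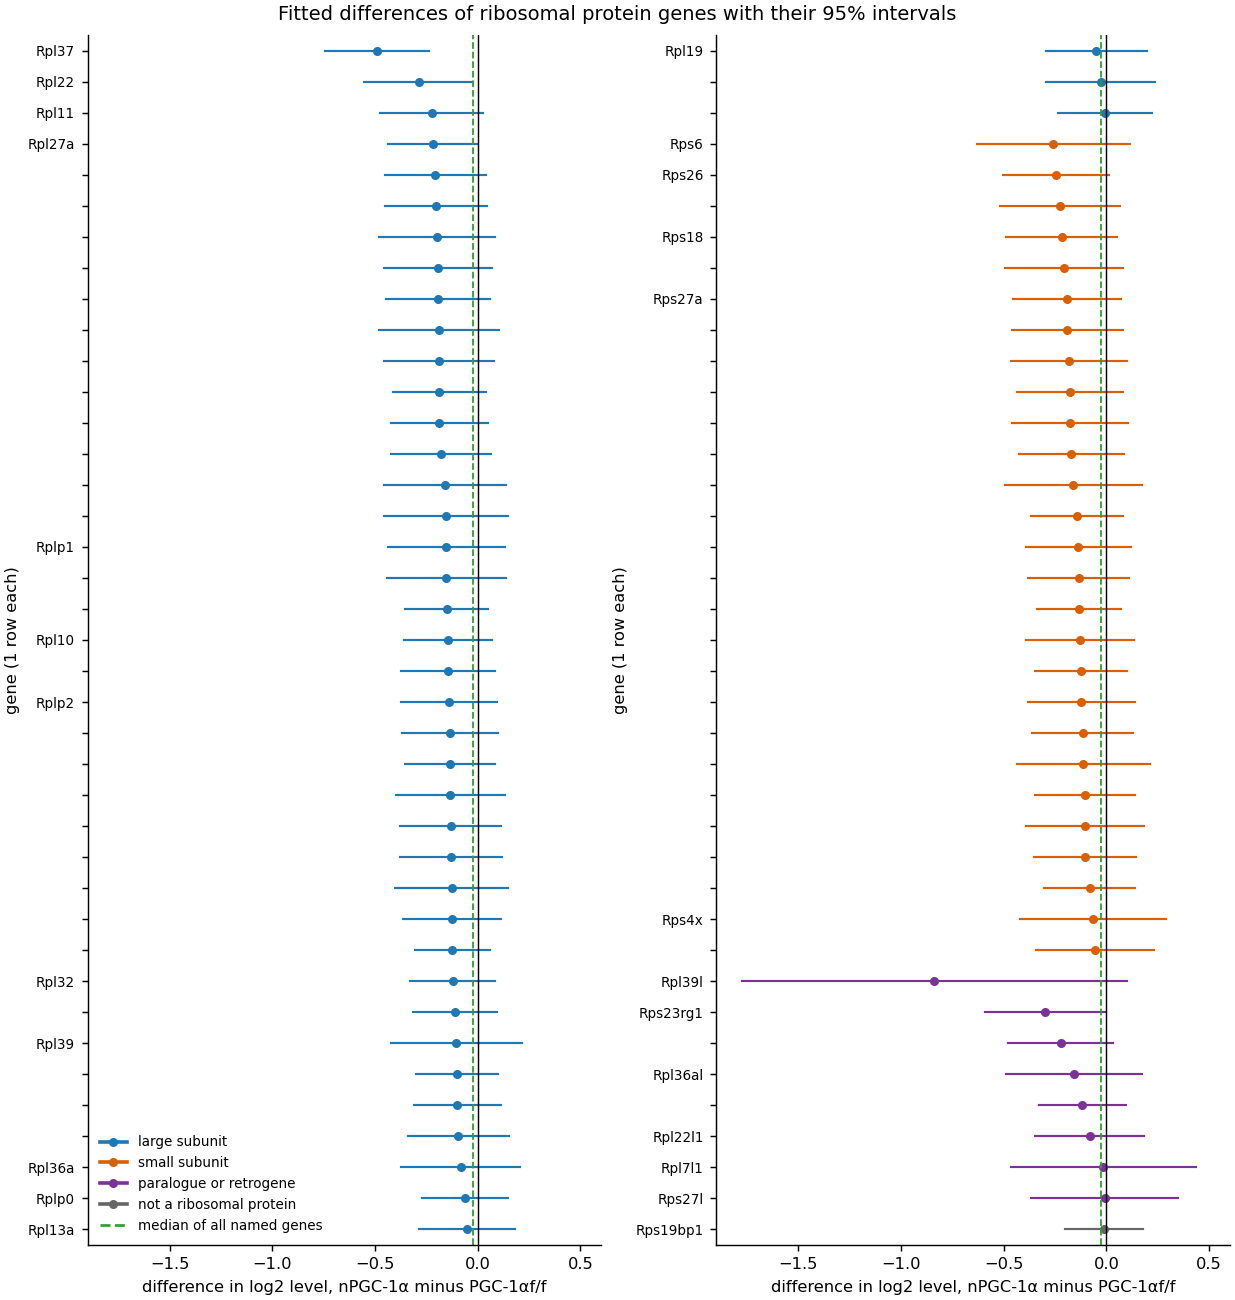
Fitted difference in log2 level (x axis, nPGC-1α minus PGC-1αf/f) for 78 of the 83 tested genes (y axis, 1 row each, named for the main genes of the text), with bars for the 95% interval of the limma fit, colours for the role and a dashed line at the median of all named genes, -0.02. Every point lies at or left of 0, and the intervals of 4 of them, Rpl37, Rpl22, Rps23rg1 and Rpl27a, end below 0.

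The large and small subunits shared this picture. In the large subunit 43 genes were tested, all 43 had a difference below 0, the median was -0.14, and 3 were lower at an unadjusted p of 0.05. In the small subunit 31 genes were tested, all 31 were below 0, the median was -0.14, and 1 was lower at that threshold. Among the 8 tested paralogues and retrogenes the median was -0.14 and 1 was lower. Of all named genes 5.03% were lower at that threshold. Of the other named genes with a mean level between 3 and 5, where most ribosomal protein genes lie, 93.4% had a difference below 0.

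Rpl37, a zinc-binding protein of the large subunit, had the lowest p of these genes. Its levels were -3.05, -2.96, -3.31, -3.22 and -3.38 in PGC-1αf/f replicates 1 to 5 and -3.93, -3.76, -3.58, -3.58 and -3.53 in nPGC-1α replicates 1 to 5. All 5 nPGC-1α arrays lay below all 5 PGC-1αf/f arrays. The difference was -0.49 ± 0.12 (SE), a fold of 0.712, with an unadjusted p of 0.00139 in limma and an adjusted p of 0.153. It stayed between -0.63 and -0.34 under every other processing and every left-out array that was tried, and its adjusted p ranged from 0.0319 to 0.972. Rpl37 had a single probe, whose level lies below the 75th percentile of the array, where 79 of the 83 genes lay above it. The other 3 genes below it were the paralogues and retrogenes Rpl39l, Rps23rg1 and Rpl7l1. The retrogene Rpl37rt, whose probe may share sequence with Rpl37, gave a difference of -0.22 ± 0.12. The mean level of the Rpl37rt probe was 3.74 and that of the Rpl37 probe -3.43. Whether the Rpl37 probe reads the mature mRNA is not given in the sources used here.

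Non-overlapping groups were found for 2 of the 83 genes, both lower in nPGC-1α, against 1.43% of all named genes, and none was higher without overlap, against 0.932%. The second was Rps27a, which makes ubiquitin fused to a small-subunit protein. Its probe kept 4 values in PGC-1αf/f, 3.81, 3.55, 3.70 and 3.61 in replicates 2 to 5, and 3 values in nPGC-1α, 3.51, 3.38 and 3.53 in replicates 2 to 4. Outlier marks removed the other 3, and the difference was -0.19 ± 0.11 (SE; limma, unadjusted p = 0.131). A second probe of Rps27a had a difference of 0.07, so the probes disagreed in sign.

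Rpl22 encodes a large-subunit protein that binds RNA and is known to restrain its own paralogue, Rpl22l1. Its levels were 3.46, 3.30, 2.84, 3.07 and 2.98 in PGC-1αf/f replicates 1 to 5 and 2.84, 2.76, 2.80, 2.83 and 2.97 in nPGC-1α replicates 1 to 5. The PGC-1αf/f arrays spread widely (SD 0.25) and the nPGC-1α arrays closely (SD 0.08), and the groups overlapped. The difference was -0.29 ± 0.12 (SE; limma, unadjusted p = 0.0353, adjusted p = 0.383). The paralogue Rpl22l1 had a difference of -0.08 ± 0.12, in the same direction as Rpl22.

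Rpl27a, a large-subunit protein whose mutation causes ataxia in mice, had levels of 3.65, 3.54, 3.21, 3.42 and 3.35 in PGC-1αf/f replicates 1 to 5. In nPGC-1α replicates 1 to 5 they were 3.18, 3.21, 3.16, 3.18 and 3.36. Replicate 5 of nPGC-1α lay among the controls, apart from the other 4. The difference was -0.22 ± 0.10 (SE; limma, unadjusted p = 0.0483, adjusted p = 0.416), and a second probe gave -0.08 ± 0.12. Rps23rg1, a retrogene of Rps23, had levels from -4.54 to -3.95 in PGC-1αf/f and from -4.85 to -4.30 in nPGC-1α, with a difference of -0.30 ± 0.13 (unadjusted p = 0.0481, adjusted p = 0.416). Retrogenes are near copies of their parent genes, and a probe for one can read the other.

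**Figure D2:**
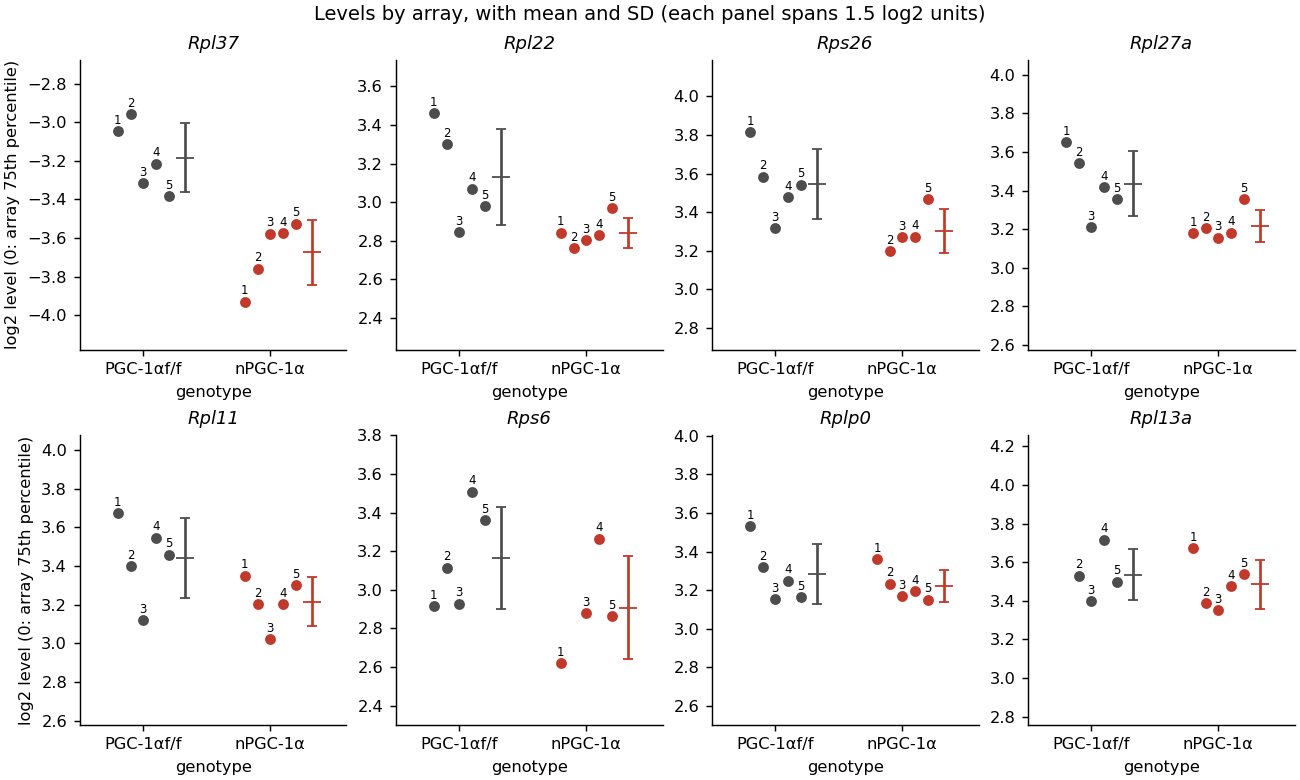
Log2 level (y axis, 0 is the 75th percentile of the array) on each array for 8 genes, with the replicate number above each point and the mean and SD at the right of each group; every panel spans the same range. The groups are apart in Rpl37 alone, and PGC-1αf/f replicates 1 and 2 are the highest points in Rpl22, Rps26 and Rpl27a.

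The next genes by p were Rps26, Rpl39l and Rpl11. Rps26, a small-subunit protein near the mRNA exit, differed by -0.24 ± 0.12 (limma, adjusted p = 0.441), with 4 nPGC-1α values. Rpl11, which signals failed ribosome assembly to p53 by binding Mdm2, had levels of 3.68, 3.40, 3.12, 3.55 and 3.46 in PGC-1αf/f replicates 1 to 5 and 3.35, 3.20, 3.02, 3.20 and 3.30 in nPGC-1α replicates 1 to 5. Its groups overlapped, with a difference of -0.22 ± 0.11 (adjusted p = 0.471). Rpl39l, a paralogue of Rpl39 known from testis, had the lowest difference of the 83 genes, -0.84 ± 0.43 (adjusted p = 0.467). That probe was dim, with levels from -6.26 to -4.61 in PGC-1αf/f and from -7.51 to -5.64 in nPGC-1α. It was well above background on 5 and 3 arrays, and so was kept through PGC-1αf/f alone.

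The P stalk, where translation factors dock, is built of Rplp0, which anchors it, and dimers of Rplp1 and Rplp2. Rplp0, often used as a reference gene, had levels of 3.53, 3.32, 3.15, 3.25 and 3.16 in PGC-1αf/f replicates 1 to 5 and 3.36, 3.23, 3.17, 3.20 and 3.15 in nPGC-1α replicates 1 to 5. The groups overlapped, and the difference was -0.06 ± 0.10 (limma, adjusted p = 0.816), with a 95% interval of -0.27 to 0.15. Under quantile normalisation, normexp with quantile normalisation and the authors' log2 table it lay above 0. Rplp1 differed by -0.15 ± 0.13 and Rplp2 by -0.14 ± 0.11, neither past the threshold.

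Rps6, the small-subunit protein that S6 kinases phosphorylate and that is widely read as a sign of mTOR activity, had levels of 2.91, 3.12, 2.93, 3.51 and 3.36 in PGC-1αf/f replicates 1 to 5. Its 4 values in nPGC-1α were 2.62, 2.88, 3.27 and 2.87 in replicates 1, 3, 4 and 5. Its highest arrays were replicates 4 and 5 of PGC-1αf/f and replicate 4 of nPGC-1α. The difference was -0.26 ± 0.17 (limma, adjusted p = 0.569), the second probe gave -0.10 ± 0.11, and on the arrays without Y transcripts the difference was 0.04.

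Besides Rplp0, the genes used as references in expression studies were Rpl13a, Rps18, Rpl19 and Rpl32. Rps18 differed by -0.22 ± 0.12 and Rpl32 by -0.12 ± 0.09. Rpl13a differed by -0.05 ± 0.10, with a 95% interval of -0.28 to 0.18, and Rpl19 by -0.05 ± 0.11, with an interval of -0.29 to 0.20. Rpl13a lay above 0 under both forms of quantile normalisation, and Rpl19 also in the authors' log2 table. None passed the adjusted threshold, where the lowest adjusted p of these genes was 0.511 for Rps18.

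Of the 88 genes, 4 are X-linked. Rpl10 differed by -0.15 ± 0.10 (SE), Rpl39 by -0.10 ± 0.14, Rpl36a by -0.08 ± 0.13 and Rps4x by -0.07 ± 0.15, and their groups overlapped. Both Rpl10 and Rps4x lay above 0 in the authors' log2 table and with quantile normalisation.

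Among the paralogues, Rps27l, a target of p53, differed by -0.0072 ± 0.16. Rpl7l1, which acts in the nucleolus rather than in the finished ribosome, differed by -0.016 ± 0.20, and Rpl36al by -0.16 ± 0.15. Rpl36al lay at 0.19 when outlier spots were kept. The partner gene Rps19bp1 differed by -0.012 ± 0.09, with a 95% interval of -0.20 to 0.18. The differences of Rps27l, Rpl7l1 and Rps19bp1 lay on either side of 0 in other processings.

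The 5 genes that could not be tested were of 2 kinds. Rpl10l and Rpl3l, paralogues known from testis and from striated muscle, were dim: 3 and 4 arrays of PGC-1αf/f held them well above background, and 0 of nPGC-1α. Their means in PGC-1αf/f, -7.10 and -6.39, lay below the mean detection floor of the nPGC-1α arrays, -6.26, so no fold is given. Rpl5, Rpl21 and Rpl23 were bright, but outlier marks left 1 or 2 values in a group. With the marked spots kept, their nPGC-1α means were lower by 0.26, 0.10 and 0.11 on the log2 scale than those of PGC-1αf/f. These 3 values were not tested.

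The probes were also read one by one. Probes of a gene share the arrays and their scaling, so their signs are not independent of each other. Of the 155 probes, 130 were tested and 127 of them had a difference below 0. Of the other named genes with a mean level between 3 and 5, 93.4% did. At an unadjusted p of 0.05, 5 probes were lower, where 5.03% of all named genes were. The 47 tested probes that did not stand for their gene had a median of -0.13, 44 were below 0, and none passed that threshold. Of the 38 genes with several tested probes, 3 had probes of opposite sign: Rpl3, Rps15a and Rps27a. The probes of a gene differed by 0.06 in the median and by 0.40 at most, in Rpl3.

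The genes moved together from array to array, also within a genotype. PGC-1αf/f replicates 1, 2 and 4 were high: 49 of 53, 79 of 82 and 79 of 83 genes lay above their own mean there. PGC-1αf/f replicate 3 was low, with 5 of 81 above, and replicate 5 lay between, with 41 of 83. Of the nPGC-1α arrays, replicate 2 had 0 of 81, replicate 3 had 2 of 80, replicate 4 had 18 of 82, replicate 5 had 34 of 80 and replicate 1 had 38 of 54. The median deviation of these genes was 0.31, 0.13, -0.14, 0.15 and -0.0012 on PGC-1αf/f replicates 1 to 5. On nPGC-1α replicates 1 to 5 it was 0.07, -0.12, -0.17, -0.06 and -0.0072. The groups overlapped, and PGC-1αf/f replicate 3 was lower than 4 of the 5 nPGC-1α arrays.

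**Figure D3:**
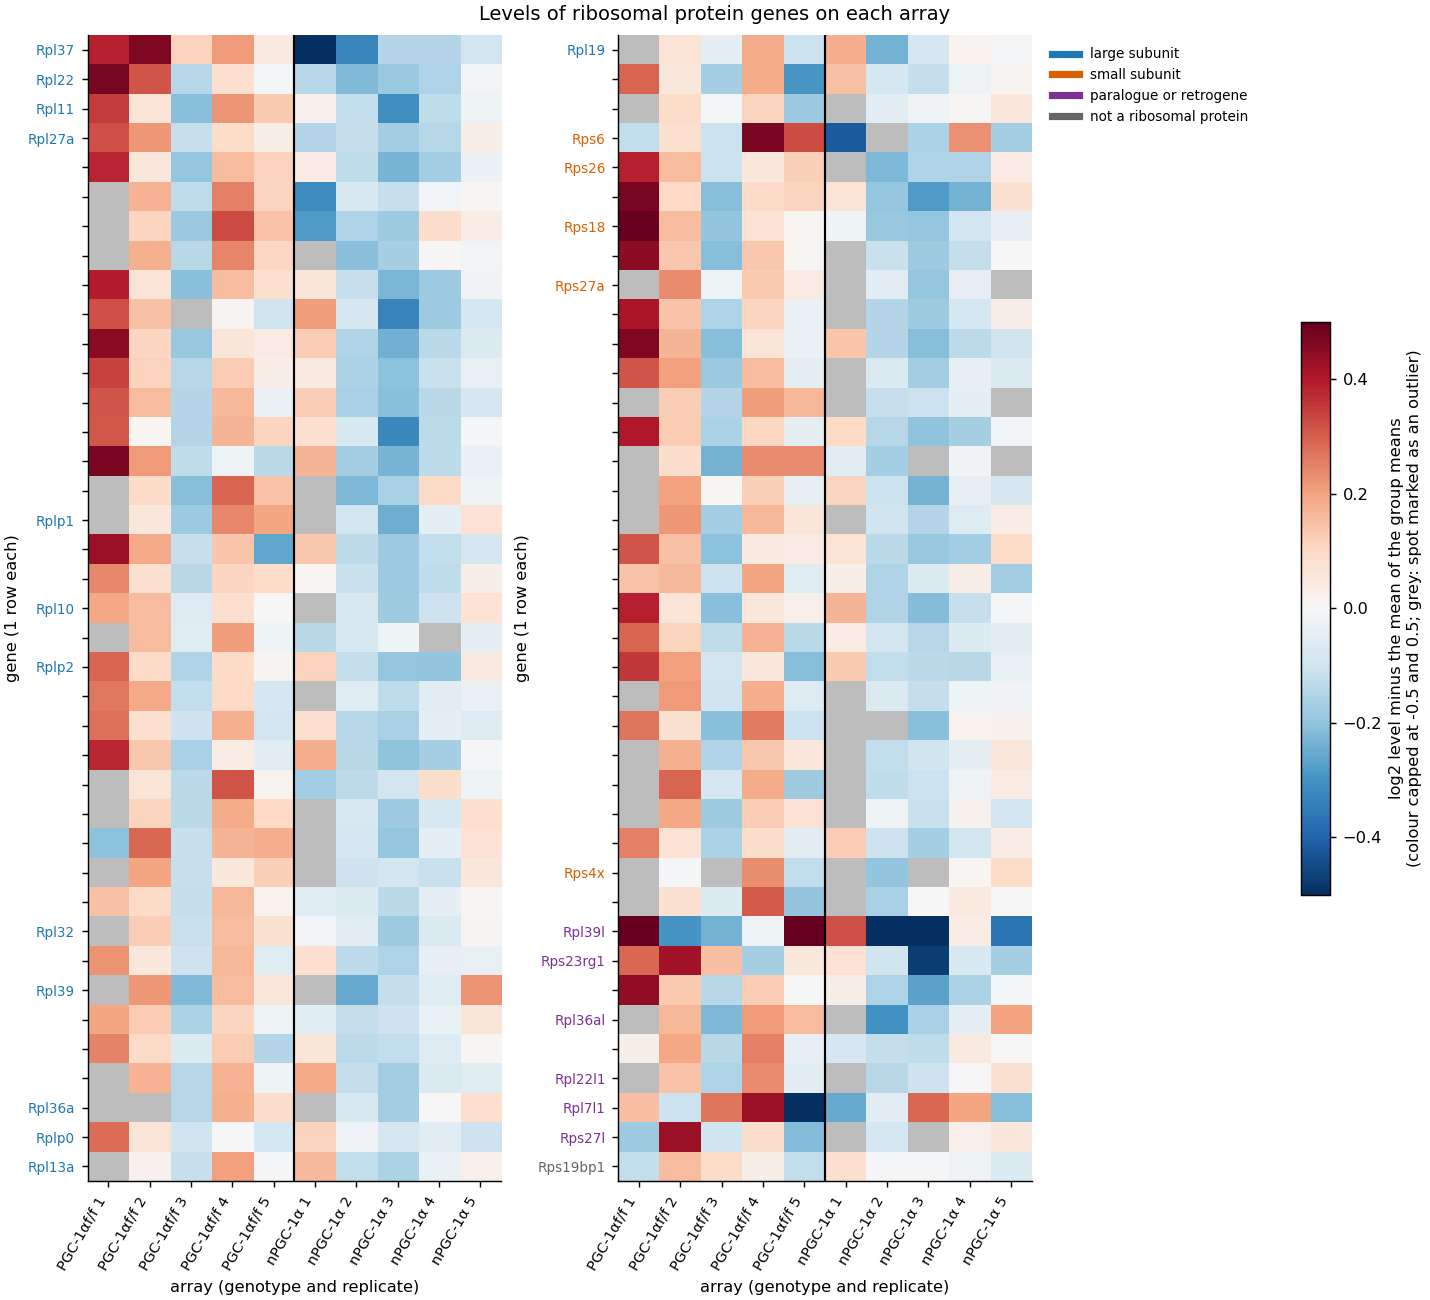
Log2 level of 78 of the 83 tested genes (rows, named for the main genes of the text) on each of the 10 arrays (columns), as the deviation from the mean of the group means, with the colour capped at -0.5 and 0.5, grey for spots marked as outliers and row labels coloured by role. Most genes of a column share a colour, high on PGC-1αf/f replicates 1, 2 and 4 and low on nPGC-1α replicates 2 and 3 and PGC-1αf/f replicate 3, while Rpl7l1 and Rps19bp1 do not follow the others.

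Of the 42 genes with a value on all 10 arrays, 36 were large- or small-subunit genes. Pairs of these 36 correlated across arrays with a median Pearson r of 0.87, and after the group means were removed with a median of 0.84. The paralogues, retrogenes and Rps19bp1 were left out of the pairs. These pairs share the arrays and their scaling. After quantile normalisation the median r of the same pairs was 0.35, and after subtraction of the median of these genes on each array it was 0.05. Among all 42 genes, those left out of the pairs included, the correlation with the median of the other members was lowest for Rps19bp1 (r = -0.13 over 10 arrays) and Rpl7l1 (r = -0.03). It was 0.57 for Rpl37. For large-subunit genes the median of this r was 0.92, and for small-subunit genes 0.95. These correlations are descriptions over 10 arrays and carry no test.

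The size of the shared difference depended on how the arrays were scaled. With quantile normalisation, which gives every array the same distribution, the median difference was -0.03 and 59 of 83 genes lay below 0, against a median of 0.02 over all named genes. With normexp background correction and quantile normalisation the median was -0.03 and 57 of 83 lay below 0. In the authors' log2 table it was -0.05, with 69 of 85 below 0. Scaling by the array median left it at -0.13, with 82 of 83 below 0. Counts at an unadjusted p of 0.05 were 1, 1, 2 and 3 genes in these 4 settings, all lower in nPGC-1α. Of all named genes, 2.09%, 4.01%, 4.62% and 4.51% were lower at that threshold in the same settings. Rpl37 stayed at -0.46, -0.37, -0.48 and -0.48. Relative to the median of all named genes in the same setting, these genes lay lower by 0.11 at the 75th percentile scale and by 0.05 with quantile normalisation.

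**Figure D4:**
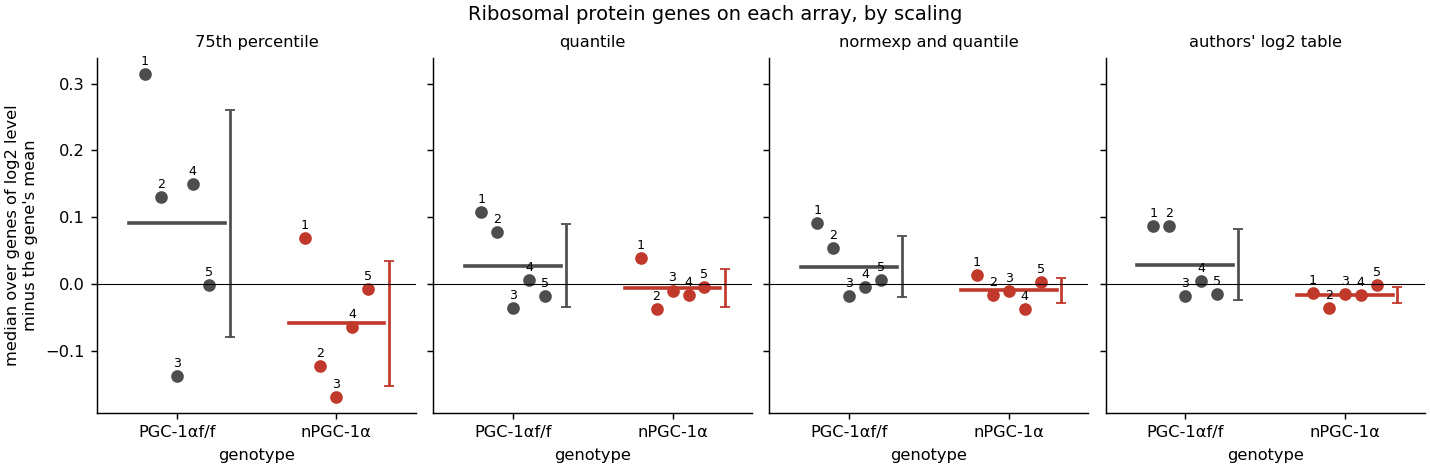
Median over the ribosomal protein genes of the log2 level minus the gene's own mean (y axis), for each array by genotype (x axis, replicate number above each point), under 4 scalings, with lines for the group mean and bars for the SD of 5 arrays. The group means are 0.09 and -0.06 at the 75th percentile scale and 0.03 and -0.01 with quantile normalisation, and the groups overlap in all 4 panels.

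Most of these genes lie at the bright end of the array, and other bright genes were shifted too. Of the 83 genes, 70 had a mean level between 3 and 5. In that range the 473 other named genes had a median difference of -0.10, and 93.4% of them lay below 0, beside -0.14 and 70 of 70 for the ribosomal protein genes. With quantile normalisation the other bright genes had a median of 0.02, with 35.5% below 0, and the 70 ribosomal protein genes had -0.03, with 49 below 0. Between levels of 0 and 2 the 5344 other named genes had a median of -0.01. Below a level of -4, where Rpl39l and Rps23rg1 lie, the 3170 other named genes had a median of -0.10, with 65.8% below 0. With quantile normalisation the median of these dim genes was 0.0057. The distance from the 75th to the 99th percentile of the array was 3.42 to 3.87 log2 units in PGC-1αf/f and 3.38 to 3.65 in nPGC-1α. This distance was largest on PGC-1αf/f replicate 1, 3.87, and smallest on nPGC-1α replicate 3, 3.38, the arrays on which the ribosomal protein genes were highest and lowest. Its part in the difference was not tested.

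**Figure D5:**
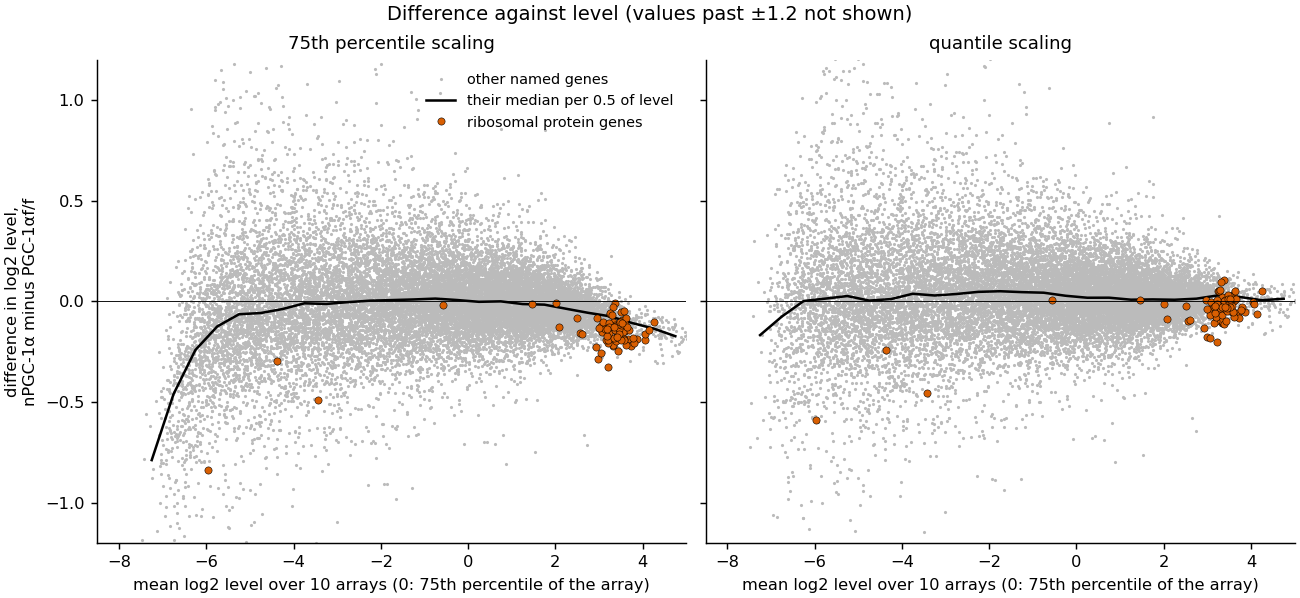
Difference in log2 level (y axis, nPGC-1α minus PGC-1αf/f) against the mean level over 10 arrays (x axis) for all named genes tested, in grey with their median as a line, and for the 83 ribosomal protein genes, in orange, at the 75th percentile scale (left) and with quantile normalisation (right). On the left the line bends below 0 at the bright end, where most of the ribosomal protein genes lie, and on the right it stays near 0 there, with these genes around a median of -0.03.

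The Y-transcript split and the slides were carried through the same comparison. With the split as a block, the median difference was -0.17, 81 of 83 genes were below 0, and 13 were lower at an unadjusted p of 0.05, against 5.23% of all named genes in that fit. On the 6 arrays without Y transcripts, 4 PGC-1αf/f and 2 nPGC-1α, the median was -0.14 and 80 of 83 were below 0. At that threshold 1 was lower there, against 1.85% of all named genes. On the 4 arrays with Y transcripts, where a single PGC-1αf/f array stood against 3, 53 genes had enough values, with a median of -0.39. The fit assumes there that the single array varies like the others, and that array is the one on which these genes were highest. On the first slide alone the median was -0.18, with 83 of 83 below 0 and 4 lower, against 5.48% of all named genes. On the second slide, with 1 array a group, the median deviations were -0.0012 in PGC-1αf/f and -0.0072 in nPGC-1α. Neither block, nor the arrays without Y transcripts, nor the first slide alone gave a gene past the adjusted threshold.

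Markers of cell types were read on the same arrays. All 5 listed excitatory neuron markers were tested, with a median difference of 0.0022 and 1 lower at an unadjusted p of 0.05. Of all named genes 5.03% were lower at that threshold. The 5 oligodendrocyte markers had a median of 0.26, none past that threshold, the 5 astrocyte markers -0.11, the 4 tested microglia markers -0.18 with 1 lower, and the 5 endothelial markers -0.03. Array by array, the median deviation of the oligodendrocyte markers ran from -0.63 to 0.08 in PGC-1αf/f and from -0.23 to 0.36 in nPGC-1α, and it was lowest on PGC-1αf/f replicate 1, where the ribosomal protein genes were highest. That of the microglia markers ran from -0.03 to 0.16 and from -0.09 to -0.06, without overlap. These array medians were taken over the listed markers with a probe, tested or not. Of single named genes 1.43% were lower without overlap, and no such share was counted for medians of sets. The markers of choroid plexus and medial habenula ran from -0.96 to 2.07 and from -0.33 to 2.08 in PGC-1αf/f, and from -1.07 to 2.86 and from -0.56 to 0.07 in nPGC-1α, and were highest on single arrays. The median difference of the 5 choroid plexus markers was -0.13, that of the 4 tested habenula markers -0.26 and that of the 3 tested red blood cell markers -0.07, and none of them passed that threshold. Their part in the difference was not tested.

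Other genes of the translation machinery were read for comparison, from lists drawn up by function. Ribosomal proteins whose symbols fall outside the naming rule included Fau, a ubiquitin-like fusion, and Rack1, a scaffold on the small subunit. Fau differed by -0.18 ± 0.11 and Rack1 by -0.15 ± 0.10, and neither passed the threshold. The median of the ribosomal protein genes chosen by name was -0.14. Fau and Rack1 also had mean levels between 3 and 5, where the other named genes had a median of -0.10 and 93.4% lay below 0. Fau had levels of 4.04, 3.82, 3.56, 3.76 and 3.62 in PGC-1αf/f replicates 1 to 5 and 3.77, 3.57, 3.48, 3.52 and 3.56 in nPGC-1α replicates 1 to 5, with replicate 1 of each group the highest of its group.

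Factors that assemble the ribosome and process its RNA lay near the median of all genes. Of 50 listed genes, 49 were tested, 30 (61.2%) lay below 0, the median was -0.03, and 0 passed an unadjusted p of 0.05 in limma. For RNA polymerase I and its factors, which transcribe ribosomal RNA, 8 of 11 tested genes lay below 0, with a median of -0.03 and none past that threshold. For translation initiation factors 22 of 29 lay below 0, with a median of -0.05 and none past it. All of these medians are near that of all named genes, -0.02, and no gene of these lists passed the adjusted threshold. Most genes of these lists had levels below 3. Most ribosomal protein genes lay between 3 and 5, where other named genes had a median difference of -0.10. The lists and the ribosomal protein genes were not compared at equal level.

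The 8 elongation factors had a median of -0.08. Eef1a1, which delivers aminoacyl-tRNA to the ribosome, differed by -0.09 ± 0.12, and Eef2, which moves the ribosome along the mRNA, by -0.13 ± 0.10. Eef1a2, the form of Eef1a1 used in mature neurons and muscle, had the widest difference of these factors. Its levels were 0.49, 0.40, 1.39, 1.37 and 1.00 in PGC-1αf/f replicates 1 to 5 and 1.42, 1.55, 1.39, 1.47 and 1.24 in nPGC-1α replicates 1 to 5. PGC-1αf/f replicates 1 and 2 were far below the others, and the rest overlapped. The difference was 0.48 ± 0.20 (SE; limma, unadjusted p = 0.0322, adjusted p = 0.370).

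In the mTOR pathway and the control of TOP mRNAs, 15 of 17 listed genes were tested, with a median of 0.05 and 6 below 0. Only Rps6ka3, a kinase of Rps6 activated by the ERK pathway, passed an unadjusted p of 0.05 among them, higher in nPGC-1α by 0.21 ± 0.09 (adjusted p = 0.401). Mtor itself differed by 0.05 ± 0.10 and Larp1, which binds TOP mRNAs, by -0.0011 ± 0.13. Of the 8 genes of p53 and the response to ribosomal stress, Cdkn1a, which halts the cell cycle, was the one past that threshold, higher by 0.30 ± 0.12 (adjusted p = 0.341). Mdm2, which Rpl5 and Rpl11 bind, differed by -0.10 ± 0.09.

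Read against the start regions shown above, the values were as follows. The 26 tested genes with CCGGAAG in their window had a median difference of -0.17, from -0.84 to -0.01, and the 38 without it had -0.13, from -0.30 to -0.01. The -0.84 is that of Rpl39l, whose dim probe was kept through PGC-1αf/f alone. The 46 tested genes with a pyrimidine run near the start had a median of -0.14, and the 18 without one also had -0.14. With TATAAA the median was -0.09 in 8 genes, and without it -0.14 in 56. With the YY1 letters it was -0.12 in 6 genes, and without them -0.14 in 58. With the NRF-1 letters it was -0.15 in 6, and without them -0.14 in 58. With AAGGTCA it was -0.19 in 3, and without it -0.14 in 61. With a C at the start and pyrimidines after it, the median was -0.16 in 14, otherwise -0.14 in 50. These medians are descriptions of a list of genes that share their arrays, and their gaps were not tested.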

How the data were processed

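Cy3-labelled hippocampal RNA of 5 nPGC-1α mice and 5 PGC-1αf/f controls was hybridised to 1-colour Agilent Mouse Gene Expression v2 arrays, 1 array per mouse. The sample labels gave the group and replicate number of each array. The deposited scanner files hold the processed fluorescence intensity of each spot, background-subtracted by Feature Extraction 11.5.1.1 per the file headers (the methods name another version) and not normalised between arrays. The authors also deposited log2 values of 41606 probes, made in GeneSpring per the methods. Their column medians were 9.92 to 9.93 and their highest value was 17.8 in every array, as quantile normalisation gives, and each column correlated with its own array at 0.999 to 1.0. How those probes were chosen is not given in the sources used here.

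Spots marked as outliers and control spots were left out, replicate spots were averaged per probe, and each array's 75th percentile was subtracted on the log2 scale. A probe was kept if every array of 1 group or both held it well above background and each group had at least 3 values (39142 probes). Accessions were named through RefSeq GRCm38.p6 (59.7% of probes). The arrays were designed on another build, so no probe coordinates are given. Each difference was fitted by limma 3.58.1 with lmFit and eBayes (R 4.3.3; Python 3.11.15, pandas 2.3.3, scipy 1.17.1), two-sided, without covariates, adjusted by Benjamini-Hochberg over all probes kept; the script was tested on simulated data. The number of arrays limits the precision.

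The members, the lists and the naming rule were chosen with earlier results of these data known. Named were up to 8 genes per direction with the lowest p, stalk, ubiquitin-fusion, paralogue, X-linked and reference genes, and list genes past an unadjusted p of 0.05; Rpl3, Rps15a, Rpl21, Rpl23, Rpl37rt and the other genes named besides were picked after their values were seen. A planned normexp correction of mean intensities was run on median intensities. Some genes that the naming rule or the lists hold are counted in the totals but not reported here by name.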

Additional observations from a re-analysis of the deposited data

Results flagged for a closer look

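Among 63 groups of 4 or 5 arrays examined, 5 held 1 array far from the other arrays of its group, and chance alone gives about 3. The level of Rpl27a on nPGC-1α replicate 5 was 3.36, where the other 4 arrays of the group lay between 3.16 and 3.21. The level of Rpl36al on PGC-1αf/f replicate 3 was 2.34, where the other 3 lay between 2.72 and 2.77. The additive noise estimate of Feature Extraction, in intensity units, was 8.98 on PGC-1αf/f replicate 1, against 5.16 to 6.14 on the other 4. It was 20.9 on nPGC-1α replicate 3, against 10.7 to 13.5 on the other 4. The share of spots marked as outliers was 10.5% on PGC-1αf/f replicate 1, against 0.192% to 3.05% on the other 4. The noise stood apart on nPGC-1α replicate 3 and PGC-1αf/f replicate 1, where the ribosomal protein genes had their lowest and highest median. The outlier share stood apart on PGC-1αf/f replicate 1 but was 3.51% on nPGC-1α replicate 3, within its group. It was highest on nPGC-1α replicate 1, 11.6%, where the median deviation of the ribosomal protein genes was 0.07.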

How the results depend on the processing

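The results moved with the scaling, and the cause of each move was not tested. At an unadjusted p of 0.05 the 75th percentile gave 5 ribosomal protein genes, where 5.03% of all named genes were lower. Quantile normalisation gave 1 (2.09%), normexp with quantile normalisation 1 (4.01%), the log2 values of the authors 2 (4.62%) and median scaling 3 (4.51%). Subtraction of the median of these genes on each array, an alternative chosen after seeing the data, gave 1 (1.49%). All of these genes were lower in nPGC-1α. In each of these 5 alternatives, and with spots marked as outliers kept or with the mean of the probes of a gene, 1 gene had groups without overlap. At the 75th percentile scale 1.43% of all named genes were lower without overlap. This share was not counted in those other settings, so the 1 gene has no matching background there. After subtraction of the members' median 42 of 83 genes lay below 0, as that scaling centres these genes. Quantile normalisation put above 0 the differences of Rplp0 (0.052), Rpl7l1 (0.0088), Rps19bp1 (0.0062), Rpl10 (0.0145), Rpl36a (0.0083), Rps4x (0.0544), Rpl13a (0.023) and Rpl19 (0.0302). Normexp with quantile normalisation did so for Rplp0 (0.0651), Rpl7l1 (0.0174), Rps19bp1 (0.0031), Rps4x (0.0321), Rpl13a (0.0532) and Rpl19 (0.0668). The authors' log2 table did so for Rplp0 (0.0453), Rpl10 (0.0366), Rps4x (0.0727) and Rpl19 (0.0226). The subtraction of the members' median did so for Rplp0 (0.0878), Rplp2 (0.0099), Rpl7l1 (0.13), Rpl22l1 (0.0436), Rps27l (0.15), Rps19bp1 (0.14), Rpl10 (0.0364), Rpl36a (0.0121), Rpl39 (0.0217), Rps4x (0.0916), Rpl13a (0.0434) and Rpl19 (0.0446). Rps27l was at 0.0118 with median scaling and at 0.0078 with the slide as a block, and Rpl36al at 0.19 with outlier spots kept.

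The fit settings also moved the count. At an unadjusted p of 0.05 it was 3 with the slide as a block (5.60% of all named genes were lower there), 1 with array weights (5.03%), 9 with a mean-variance trend and robust eBayes (5.17%), and 13 with the Y-transcript split as a block (5.23%). It was 1 on the arrays without Y transcripts (1.85%) and 3 on those with them (5.03%, in a fit that assumes the lone PGC-1αf/f array to vary like the others), where the median difference was -0.39 and 50 of 53 genes lay below 0. Groups did not overlap in 6 genes on the first slide alone, all lower, as in 4.25% of all named genes, and in 9 on the arrays without Y transcripts, all lower, as in 8.16%. On the arrays with Y transcripts, where 1 array stood against 3, they did not overlap in 52 genes, 49 lower and 3 higher, as in 38.3% and 22.6% of all named genes. Without the filter on dim probes 1 gene passed the adjusted threshold, Rpl37 (-0.49, limma adjusted p = 0.0319). Ppargc1a was at -0.0368 on the first slide alone, at -0.0345 with the Y-transcript block and at -0.12 on the arrays with Y transcripts. The Y-transcript block put Rps27l at 0.0045 and Rps19bp1 at 0.009, and the arrays with these transcripts put them at 0.23 and 0.13. On the arrays without them Rpl7l1 was at 0.10 and Rps6 at 0.0363.

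Leaving out each array in turn, the count at an unadjusted p of 0.05 ranged from 1 to 20. It was 20 without PGC-1αf/f replicate 3 (5.56% of all named genes were lower), and 1 without PGC-1αf/f replicate 1 (3.92%), nPGC-1α replicate 2 (4.72%) or nPGC-1α replicate 3 (3.47%). Without PGC-1αf/f replicate 2 it was 2 (3.31%). Without PGC-1αf/f replicate 4 (5.82%) or 5 (6.10%) or nPGC-1α replicate 4 (3.89%) it was 3. Genes without overlap ranged from 2 to 24. There were 24 without PGC-1αf/f replicate 3, all lower, as in 3.05% of all named genes. There were 6 without nPGC-1α replicate 5 (2.28% of all named genes lower) and 3 without nPGC-1α replicate 1 (2.52%) or 4 (2.17%). Where there were 2, this share ran from 1.68% to 3.13%. The median difference ranged from -0.20 to -0.11. Differences spanned -0.10 to 0.0005 in Rplp0, -0.19 to 0.0895 in Rpl7l1, -0.0627 to 0.10 in Rps27l, -0.0444 to 0.0257 in Rps19bp1, -0.0243 to 0.0402 in Ppargc1a, -0.14 to 0.0331 in Rps4x, -0.10 to 0.0097 in Rpl13a and -0.10 to 0.0043 in Rpl19. No left-out array gave a gene past the adjusted threshold.

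The groups share replicate numbers, but nothing in the labels ties a number to a shared litter or day. Deviations of same-numbered arrays correlated at 0.22, 0.08, 0.11, 0.18 and 0.36 over 34000 probes, and replicates 3 and 4 of both groups and replicate 2 of nPGC-1α did not correlate best with their own number. With the replicate block the count at an unadjusted p of 0.05 was 12, against 7.06% of all named genes lower, and no gene passed the adjusted threshold.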
